A study of Rattus norvegicus with 156 samples.

Results

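The insulin-like growth factor (IGF) system was followed through 8 rat genes chosen by symbol: the ligands Igf1 and Igf2, the receptor Igf1r and the binding proteins Igfbp2, Igfbp3, Igfbp4, Igfbp5 and Igfbp6. Every probe set annotated to 1 of these symbols on the 3 arrays of the Affymetrix rat U34 set (A, B and C) was taken, which gave 30 of 26379 probe sets and 8 of 10969 gene symbols. Igf1 had 9 probe sets, Igf2 had 6, Igfbp5 had 4, Igf1r and Igfbp2 had 3 each, Igfbp3 and Igfbp4 had 2 each and Igfbp6 had 1. A gene is given by its brightest probe set, the one with the highest mean log2 signal over all pools, and its other probe sets are numbered by falling brightness. Signals of different probe sets are on different scales, so levels are compared between pools and tissues for 1 probe set at a time.

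The 52 RNA pools came from rats of 5 treatments: spinal nerve ligation (SNL), SNL with gabapentin (GPN, a drug used against neuropathic pain), sham surgery, naive, and naive with gabapentin. In SNL rats the L5 and L6 spinal nerves of 1 side were tied; sham surgery exposed the nerves without tying them, and naive rats had no operation. Gabapentin was injected into the abdominal cavity at 100 mg per kg once daily over 7 days, and the other groups received saline. Tissue was taken 19 to 21 days after surgery, and SNL rats had entered the study only if their ipsilateral paw withdrawal threshold was lowered when tested on days 12 to 14. The sources used here do not give the strain, sex or age of the rats. Each group had 8 to 12 rats, divided into 2 pools of 4 to 6, and the first pool was hybridised. The 11 compartments were the dorsal root ganglia (DRG, which hold the sensory neuron bodies) of levels L4, L5 and L6, the sciatic nerve at mid thigh and the hemisected spinal cord, each ipsilateral and contralateral to the ligation, and whole brain. The SNL contralateral nerve, the naive contralateral L6 DRG and the naive gabapentin contralateral L5 DRG were not analysed here. Each treatment had 1 pool per compartment. The 2 ligated pools (SNL and SNL with gabapentin) were set against the 3 unligated pools (sham, naive and naive with gabapentin), so a p-value measures the spread between pools that also differ in surgery or drug. In pooled tissue, fewer cells of a type and less RNA per cell cannot be told apart.

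IGF-1 and IGF-2 are secreted peptides that act mainly through the receptor tyrosine kinase encoded by Igf1r, which signals through insulin receptor substrates to the PI3K and MAP kinase pathways. Binding proteins of the Igfbp family hold the ligands in extracellular fluid and matrix, carry them, and release them when proteases cut the binding protein. In peripheral nerve the IGFs are known for supporting the survival and neurite growth of sensory neurons and the survival and myelination of Schwann cells. In adult brain Igf2 is made largely by choroid plexus and meninges.

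Igf2 and Igf1 were the members that passed the ligation test, and the RefSeq promoter windows of these genes (GRCr8 assembly) are shown to give their sequence context. Each window runs 5′ to 3′ on the gene's strand, from 250 bases before to 50 bases after the annotated start, and capitals mark GC boxes. Igf2 has 2 annotated starts, on the minus strand at chr1:207250426-207250725 and chr1:207253931-207254230, and Igf1 has 1, on the plus strand at chr7:24172282-24172581.
Igf2, first window: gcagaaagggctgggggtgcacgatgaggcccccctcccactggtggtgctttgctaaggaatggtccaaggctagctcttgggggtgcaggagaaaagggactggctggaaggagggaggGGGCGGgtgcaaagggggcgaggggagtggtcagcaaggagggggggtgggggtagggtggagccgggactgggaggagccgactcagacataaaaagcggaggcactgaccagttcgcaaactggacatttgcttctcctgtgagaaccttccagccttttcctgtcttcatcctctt
Igf2, second window: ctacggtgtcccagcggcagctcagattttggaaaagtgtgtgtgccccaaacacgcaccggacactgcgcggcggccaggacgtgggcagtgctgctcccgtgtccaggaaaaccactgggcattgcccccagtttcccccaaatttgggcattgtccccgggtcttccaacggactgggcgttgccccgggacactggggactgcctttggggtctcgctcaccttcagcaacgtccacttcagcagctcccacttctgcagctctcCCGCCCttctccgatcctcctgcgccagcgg
Igf1: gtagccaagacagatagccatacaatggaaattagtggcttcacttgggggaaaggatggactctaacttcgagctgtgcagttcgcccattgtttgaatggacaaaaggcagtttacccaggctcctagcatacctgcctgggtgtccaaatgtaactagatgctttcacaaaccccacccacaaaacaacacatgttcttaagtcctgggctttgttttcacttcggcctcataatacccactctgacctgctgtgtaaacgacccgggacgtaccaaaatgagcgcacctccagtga
A window for each of the 8 genes, 9 in all, was searched on both strands for the TATA box letters TATAAA, the GC box letters GGGCGG and the AP-1 letters TGANTCA, and no match overlapped another. GC box letters stood in 4 of the 9 windows, against 33.1% of all 33469 rat windows. The TATAAA letters stood in 1 of the 9, that of Igfbp4, against 14.2% of all windows, and the AP-1 letters in 0 of the 9, against 7.33%. These are letter matches within 300 bases and no more. Igfbp2 and Igfbp5 are neighbouring genes on chromosome 9.

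The deposited arrays differed in brightness, with medians from 13 to 62.2 on array A, 8.1 to 47.2 on B and 14.5 to 53.3 on C, and were quantile normalised before comparison. Several marker genes followed the tissue labels, and others of the same lists did not. In unligated ipsilateral pools the neurofilament gene Nefl averaged 4773 in L5 DRG and 84.6 in nerve, and the astrocyte gene Aqp4 1312 in cord and 2.86 in L5 DRG. The Schwann cell gene Prx averaged 3989.7 in nerve, 1347 in L5 DRG, 827 in cord and 21.2 in brain. Of the same list, Pmp22 and Mal were also highest in nerve among these 4 tissues. Mbp (5184 in cord, 4727 in nerve) and S100b (3296 in cord, 3236 in nerve) were highest in cord. The choroid plexus gene Ttr averaged 2451 in brain and at most 38.6 in the other 3. The other listed choroid plexus markers on the arrays, Kl, Folr1 and Kcnj13, were dim in brain (23.7, 27.0 and 4.80) and not highest there. Nerve pools also carried fat and muscle transcripts: Adipoq averaged 453 and the muscle creatine kinase gene Ckm 3024.

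Ligation was accompanied by higher Igf2 and Igf1 in the ipsilateral L5 DRG, whose spinal nerve was tied. Both ligands rose about equally on the log2 scale. By their brightest probe sets all 8 members had a positive change there, while the other 2 Igf1r probe sets had negative ones. Of the 8 members, 2 passed the test (limma, Benjamini-Hochberg adjusted over all probe sets), both upwards, where 15.6% of the 16746 probe sets tested passed in either direction and 6.75% passed upwards. The median log2 change of the 8 was 0.74, beside -0.0025 over all probe sets tested.

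Igf2, the ligand best known from fetal growth, had normalised signals of 184 in the SNL pool and 172 in the SNL pool with gabapentin, against 83.2 in sham, 79.2 in naive and 97.6 in naive with gabapentin. The 2 ligated pools lay close together and well above all 3 unligated pools. The log2 change was 1.00 ± 0.14 (SE), with an adjusted p of 0.0054, and under 12 other settings it ranged from 0.81 to 1.08 and passed in each. The second Igf2 probe set had 103 and 102.1 in the SNL and SNL gabapentin pools, against 76.1, 77.9 and 75.5 in the sham, naive and naive gabapentin pools. Its groups also did not overlap, and its change of 0.40 ± 0.12 had an adjusted p of 0.068. The third probe set overlapped between groups, with a log2 change of 0.06 ± 0.19.

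Igf1 had 143 in the SNL pool and 101.4 in the SNL gabapentin pool, against 42.6 in sham, 55.0 in naive and 81.5 in naive with gabapentin. The ligated pools were the 2 highest, with naive gabapentin nearest to them. The log2 change was 0.99 ± 0.26, with an adjusted p of 0.045. The call was lost when any of several pools was left out: the adjusted p was 0.24 without the SNL pool, 0.066 without the SNL gabapentin pool, 0.10 without sham and 0.098 without naive. It was also lost with median scaling (adjusted p = 0.064), without the filter on low signals (0.085) and with the mean log2 signal of skeletal muscle markers as a covariate (0.092). Leaving out either ligated pool leaves 1 ligated pool, which is then assumed to vary like the unligated pools, here and in the fits of that kind given for the other genes. The second Igf1 probe set had 82.5 and 47.5 in the ligated pools, against 36.6, 35.0 and 35.6 in sham, naive and naive gabapentin pools, a change of 0.74 ± 0.23 (adjusted p = 0.067). The third rose by 1.14 ± 0.24 (adjusted p = 0.021).

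The receptor gene Igf1r had 60.1 and 56.5 in the SNL and SNL gabapentin L5 pools, against 51.3, 37.5 and 42.1 in the sham, naive and naive gabapentin pools. The groups were apart by a narrow gap to sham, and the change of 0.38 ± 0.17 did not pass (adjusted p = 0.17). The other 2 Igf1r probe sets had the opposite sign, also without overlap and without passing. The second had 42.4 and 39.4 in the ligated pools, against 51.5, 49.1 and 44.7 in the sham, naive and naive gabapentin pools (-0.22 ± 0.15, adjusted p = 0.36). The third had a mean of 40.4 in ligated and 61.8 in unligated pools (-0.58 ± 0.24, adjusted p = 0.15).

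Among the binding proteins, Igfbp5 and Igfbp6 had the largest L5 changes of the 8 members by value but the widest spread between the 2 ligated pools. Igfbp5, a binding protein that attaches to extracellular matrix, had 1289.9 in the SNL pool and 615 in the SNL gabapentin pool, against 548 in sham, 383 in naive and 393 in naive with gabapentin. Igfbp6, which binds IGF-2 in preference to IGF-1, had 1061 and 434 in these ligated pools, against 367, 251 and 300.0 in the sham, naive and naive gabapentin pools. In both genes the SNL pool stood far above the other 4, and the SNL gabapentin pool lay just above sham. The changes of 1.02 ± 0.30 for Igfbp5 (adjusted p = 0.060) and 1.15 ± 0.34 for Igfbp6 (adjusted p = 0.063) did not pass. With the muscle covariate, Igfbp5 (1.44, adjusted p = 0.013) and Igfbp6 (1.63, adjusted p = 0.013) were past the threshold, and so was Igfbp6 on the deposited scaling (0.98, adjusted p = 0.045). Without the SNL gabapentin pool the adjusted p was 0.0145 for Igfbp5 (1.55), 0.0105 for Igfbp6 (1.79) and 0.044 for Igfbp2 (0.85), but the ligated group was then the high SNL pool alone, with no spread of its own, so these values carry no replicate check. The second Igfbp5 probe set passed with all pools, rising by 1.64 ± 0.42 (adjusted p = 0.039), with 413 and 169.8 in the ligated pools, against 106, 49.8 and 100.7.

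Igfbp3, the main carrier of IGFs in serum, had 52.6 and 69.1 in the ligated L5 pools, against 42.2 in sham, 44.9 in naive and 37.9 in naive with gabapentin. The groups did not overlap, and the change of 0.48 ± 0.17 did not pass (adjusted p = 0.10). Its second probe set rose by 0.86 ± 0.21 (adjusted p = 0.032). Igfbp2 (0.35 ± 0.28) and Igfbp4 (0.23 ± 0.15) overlapped between groups. Igfbp2 had 172 in the SNL pool but 82.5 in the SNL gabapentin pool, below all 3 unligated pools. In all, 6 of the 8 members had both ligated pools above the 3 unligated ones, where 23.5% of all probe sets tested did so.

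**Figure D1:**
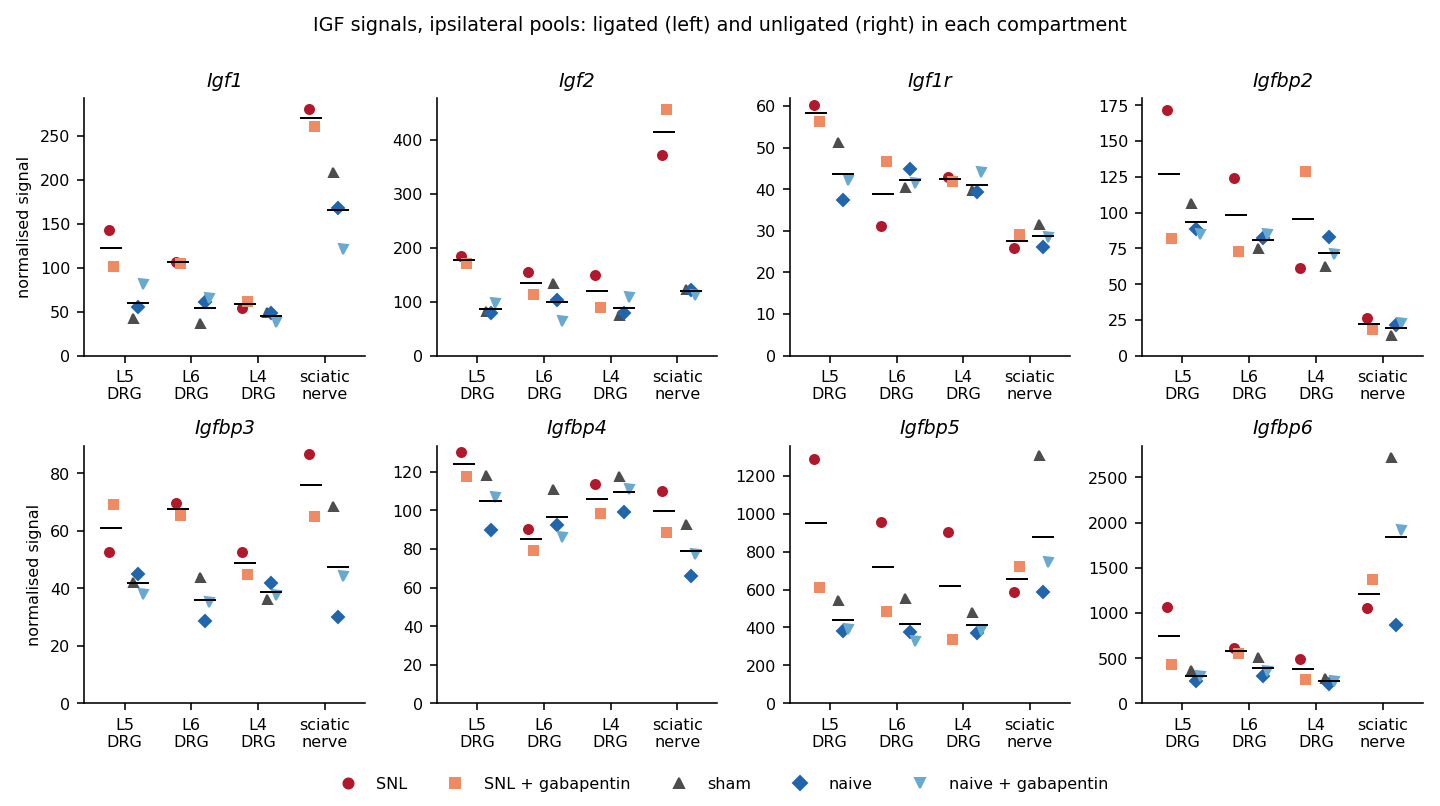
Normalised signal (arbitrary units, linear axis from 0) of the brightest probe set of each of the 8 genes in 4 ipsilateral compartments; each point is 1 pool, ligated pools stand left of unligated pools, and bars are group means. In nerve the Igf2 signals of 372 and 457 in ligated pools lie far above the 3 unligated pools, and in the L5 DRG the SNL pool stands alone at 1289.9 for Igfbp5 and 1061 for Igfbp6.

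Other cell type markers moved in the same L5 pools. The summed signal of 10 macrophage and microglia markers was 4222 to 4541 in ligated pools, against 887 to 1468 in unligated pools, and 8 of the 9 markers tested passed upwards. The 10 fibroblast and meninges markers summed to 16504.5 in the SNL pool and 10063 in the SNL gabapentin pool, against 6889 to 8022 in unligated pools, with 5 of 10 passing upwards. Of the 8 neuron markers, 5 passed downwards, and their sum was 13567 to 15242 in ligated pools, against 22622 to 23699 in unligated pools. Oligodendrocyte markers summed to 966 to 1067 in ligated and 583 to 693 in unligated pools, and fat markers to 369 to 430.4 in ligated and 502 to 625 in unligated pools. With all pools normalised together, the oligodendrocyte genes Cnp and Mag averaged 289 and 146 in unligated L5 DRG. Mog, Mobp and Cldn11 were dim there (20.3, 42.4 and 38.2), against 417, 1025 and 1298 in ipsilateral cord. The oligodendrocyte sum in DRG thus rested mostly on Cnp and Mag. Skeletal muscle markers summed to 3384 to 10454 in ligated and 1084 to 5283 in unligated pools. This list includes Pvalb, which averaged 453 in unligated L5 DRG and 486 in brain, where Ckm had 323 and 16.1 (all pools normalised together). The muscle list, also used as the covariate, therefore does not follow muscle alone. The GAPDH 3′ to 5′ signal ratio was 1.01 to 1.05 in ligated and 1.13 to 1.26 in unligated pools. With muscle as a covariate Igf2 still passed (1.05, adjusted p = 0.014), Igf1 did not, and Igfbp5 and Igfbp6 did, as given above. The part of the other lists and of the GAPDH ratio in the IGF changes was not tested.

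In the L6 DRG, the other ganglion with a tied nerve, 0 of 8 members passed by limma, where 8.59% of the 16901 probe sets tested passed. An unadjusted p below 0.05 was found for 3 of the 8 and for 24.1% of these probe sets. Igf1 had 106.8 in the SNL pool and 105.6 in the SNL gabapentin pool, against 37.1 in sham, 61.3 in naive and 65.6 in naive with gabapentin. The ligated pools were nearly equal and above the rest, and the change of 0.92 ± 0.25 had an adjusted p of 0.060. Igfbp3 had 69.6 and 65.5 in ligated pools, against 44.0, 28.6 and 35.1 in sham, naive and naive gabapentin pools, without overlap, and a change of 0.83 ± 0.21 (adjusted p = 0.051). Both stood at the edge of the threshold. Igfbp6 had 613 and 555, against 507, 298 and 356, a change of 0.62 ± 0.23 (adjusted p = 0.15). Without the sham pool, Igfbp3 (0.97, adjusted p = 0.031) and Igfbp6 (0.83, adjusted p = 0.029) passed. Igf2 overlapped between groups in L6 (0.45 ± 0.30), as did Igfbp5 (0.73 ± 0.32), whose SNL pool had 955 and whose SNL gabapentin pool had 487, against 556 in sham. In the same L6 pools the neuron markers summed to 8749 to 10273 in ligated and 18274 to 19452 in unligated pools, the macrophage and microglia markers to 3737 to 4926 in ligated and 704 to 1047 in unligated pools, and the fibroblast and meninges markers to 9103 to 10982 in ligated and 6145 to 6876 in unligated pools. Endothelium markers summed to 312 to 314 in ligated and 205 to 248 in unligated pools, and oligodendrocyte markers to 668 to 954 in ligated and 453 to 592 in unligated pools. Mog, Mobp and Cldn11 of the oligodendrocyte list were dim in unligated L6 DRG too (22.3, 37.1 and 35.8 with all pools normalised together). The GAPDH ratio was 1.08 to 1.10 in ligated and 1.21 to 1.49 in unligated L6 pools. The part of these lists and of the GAPDH ratio in the L6 values was not tested.

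The third Igf1 probe set went against the first in the L6 DRG. It fell by 1.27 ± 0.23 there (adjusted p = 0.016), with 21.1 and 13.0 in the SNL and SNL gabapentin pools, against 43.7, 54.0 and 48.2 in the sham, naive and naive gabapentin pools. The same probe set had 9.25 and 13.9 in the ligated L4 pools, against 39.0, 39.4 and 53.9, a change of -1.52 ± 0.24 that did not pass (adjusted p = 0.077). In L5 it had 52.6 and 41.3 in ligated pools, against 16.7, 24.3 and 14.1. Its log2 signal correlated with that of the brightest Igf1 probe set at r = 0.14 over the 52 pools, whereas the second and eighth probe sets reached 0.86 and 0.89. These are descriptions over pools that share tissues and treatments.

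**Figure D2:**
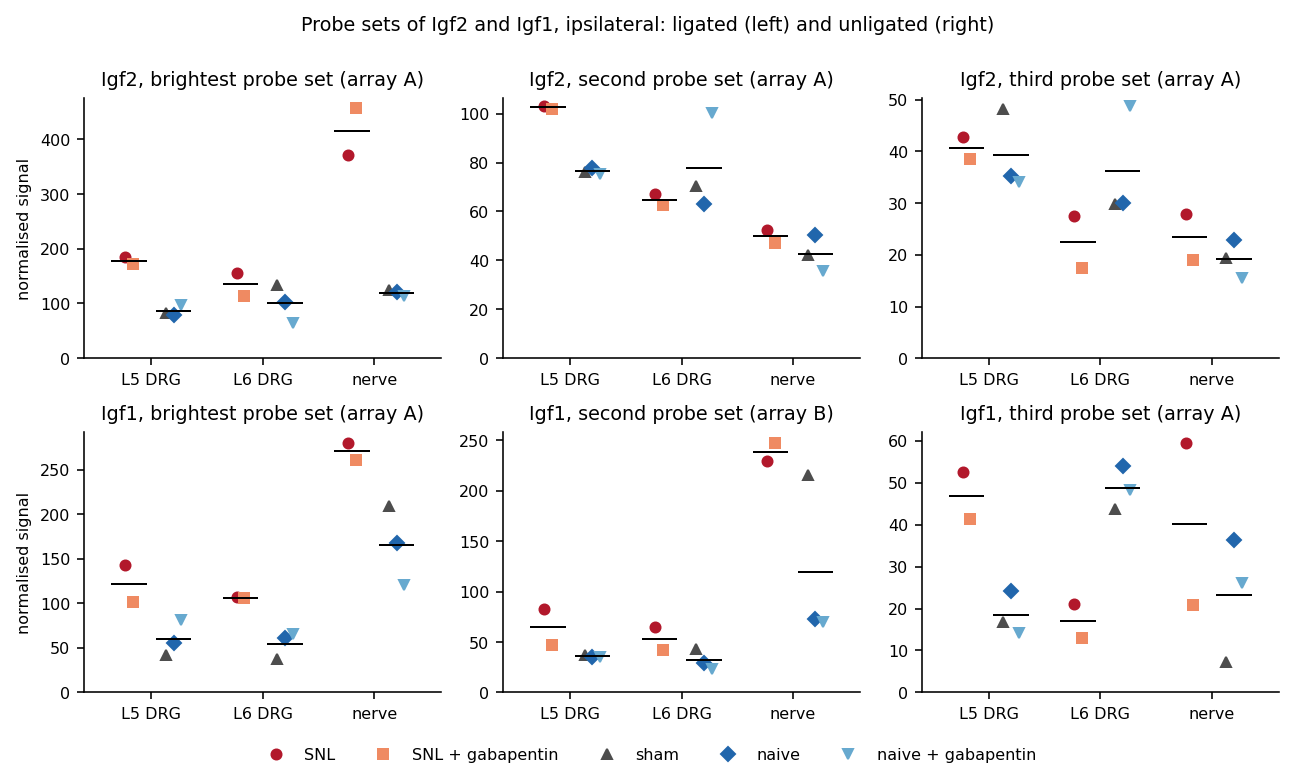
Normalised signal (linear axis from 0) of the 3 brightest probe sets of Igf2 (top) and Igf1 (bottom) in the ipsilateral L5 DRG, L6 DRG and nerve; points are pools, ligated left of unligated, and bars are group means. The brightest Igf2 probe set separates the nerve pools while the second and the third do not, and the third Igf1 probe set is higher with ligation in L5 and lower in L6.

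The L4 DRG sends its axons through an untied spinal nerve that joins the same sciatic nerve. There, 0 of 8 members passed by limma, where 0.0418% of 16762 probe sets passed. An unadjusted p below 0.05 was found for 0 of the 8 and for 14.3% of these probe sets. The SNL pool was again the highest for Igfbp5, at 904, with 338 in the SNL gabapentin pool, against 480.0 in sham, 369 in naive and 386 in naive with gabapentin. Igfbp6 was likewise highest in the SNL pool, with 485 and 266, against 285, 211 and 242. On the deposited scaling, without quantile normalisation, Igfbp5 passed in L4 (1.03, adjusted p = 0.040), where the median over all probe sets was itself 0.49 and 2878 of them were higher and 48 lower, against 1 and 6 after quantile normalisation. Igf1 had 54.6 and 62.3, against 49.9, 48.0 and 38.6, and its groups did not overlap (0.33 ± 0.17, adjusted p = 0.43). Igf2 overlapped between groups, with 150.0 and 89.2, against 75.8, 78.3 and 108. The SNL L4 pool also stood apart in marker sums. Muscle markers summed to 5241 there, against 892 to 1509 in the other L4 pools. Macrophage and microglia markers summed to 2102, against 831 to 1267, fibroblast and meninges markers to 9446, against 6114 to 7224, and neuron markers to 19536, against 21948 to 22535. The GAPDH ratio was 1.12 to 1.16 in ligated and 1.29 to 1.34 in unligated L4 pools. The part of these in the L4 values was not tested.

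In the ipsilateral sciatic nerve, sampled beyond the ligation, Igf2 had the largest ligation change among the brightest probe sets of the 8 members over the 10 compartments tested. Its signals were 372 in the SNL pool and 457 in the SNL gabapentin pool, against 124 in sham, 122 in naive and 113 in naive with gabapentin. The ligated pools were several times brighter than the unligated pools, which hardly differed from each other. Igf2 rose by 1.74 ± 0.18 on the log2 scale, which is 3.34-fold on the scale of signal plus pseudocount (adjusted p = 0.0039), and was the 1 of 8 members that passed. Of 16925 probe sets tested, 4.87% passed in either direction and 2.25% upwards. In the contralateral nerve, where 1 ligated pool was analysed and no test was made, Igf2 had 128 in the SNL gabapentin pool, against 125 in sham, 184 in naive and 118 in naive with gabapentin.

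Of the 6 Igf2 probe sets, 3 were bright enough to be tested in nerve, and the brightest was the 1 that passed. The second had 52.6 and 47.1 in ligated nerve pools, against 42.2, 50.5 and 35.5 in sham, naive and naive gabapentin pools, with a change of 0.21 ± 0.20 (adjusted p = 0.65). The third had a log2 difference of 0.22 ± 0.24 (adjusted p = 0.69). Which part of the Igf2 transcript each probe set reads was not analysed here. Without the SNL pool the log2 difference of the brightest probe set was 1.88 (adjusted p = 0.069), and with the mean log2 signal of the muscle markers as a covariate it was 1.90 (adjusted p = 0.069); in these fits 0 and 6 of all probe sets passed. Muscle markers summed to 925 in the SNL pool and 8555 in the SNL gabapentin pool, against 8712 to 18382 in unligated pools. Fat markers summed to 1070.5 to 1535 in ligated and 2526 to 4168 in unligated pools, and 5 Schwann and myelin markers to 12144 to 12531 in ligated and 18433 to 20428 in unligated pools. Macrophage and microglia markers summed to 3190 to 3316 in ligated and 1645 to 3156 in unligated pools, and the GAPDH ratio was 1.61 to 1.92 in ligated and 1.60 to 7.38 in unligated pools. Endothelium markers summed to 363 to 402 in ligated and 599 to 619 in unligated pools, fibroblast and meninges markers to 17209 to 17297 in ligated and 15334 to 16769 in unligated pools, neuron markers to 776 to 952 in ligated and 520 to 708 in unligated pools, and choroid plexus markers to 36.9 to 43.3 in ligated and 49.5 to 61.0 in unligated pools. With all pools normalised together, Eno2 averaged 495 in unligated nerve and every other neuron marker at most 154. The choroid plexus markers averaged at most 26.9 there. The neuron sum thus rested largely on 1 gene and the choroid plexus sum on dim ones. All lists given here lay apart between the groups by their sums. Their part in the Igf2 change was not tested beyond the muscle covariate.

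The other ligand, Igf1, had 280.4 and 261 in the ligated nerve pools, against 209 in sham, 168 in naive and 121 in naive with gabapentin. The groups did not overlap, and the change of 0.72 ± 0.24 did not pass (adjusted p = 0.16). Sham stood nearest to the ligated pools. On the second Igf1 probe set sham had 215, close to the 229 and 247 of the ligated pools, and the naive and naive gabapentin pools had 72.6 and 69.9. Igfbp5 and Igfbp6 had negative values in nerve: -0.35 ± 0.33 for Igfbp5 and -0.45 ± 0.44 for Igfbp6, neither past the test. Sham was the highest nerve pool for both, at 1309 for Igfbp5, with 585 and 723 in the ligated pools, and at 2724 for Igfbp6, with 1057 and 1373 in the ligated pools. The difference in ligation change (nerve minus L5 DRG) did not pass for Igfbp5 (-1.37 ± 0.38, adjusted p = 0.098) or Igfbp6 (-1.61 ± 0.49, adjusted p = 0.12). It did not pass for Igf2 either (0.74 ± 0.25, adjusted p = 0.15). In this comparison 0 of 8 members passed by limma, beside 3.06% of 18395 probe sets. At an unadjusted p below 0.05 there were 3 members, beside 17.8% of these probe sets.

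**Figure D3:**
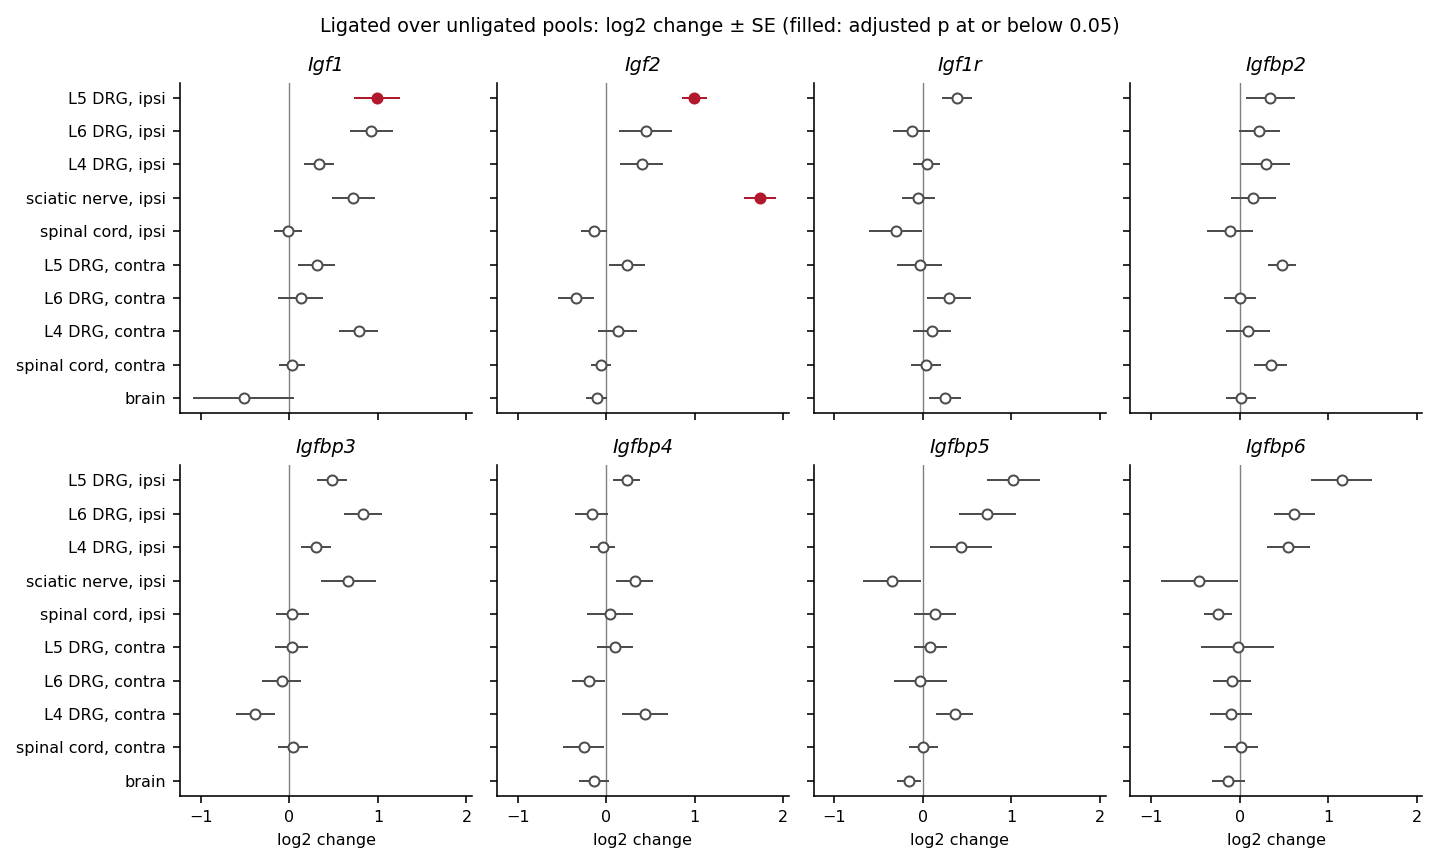
Log2 change, ligated over unligated pools, of the brightest probe set of each gene (horizontal axis) in 10 compartments (vertical axis); points are estimates, bars are ± SE of the limma fit, and filled points passed. Igf2 in nerve (1.74) and in L5 DRG (1.00) and Igf1 in L5 DRG (0.99) are the 3 filled points; Igfbp3 in brain was too dim to be tested.

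Away from the injured segments the IGF genes did not pass. By limma 0 of 8 members passed in ipsilateral cord, 0 of 8 in contralateral cord and 0 of 7 in brain. In each of these 0% of all probe sets passed. An unadjusted p below 0.05 was found for 0 members in each, beside 2.71%, 5.03% and 2.59% of all probe sets. In the contralateral DRG 0 of 8 passed by limma at L4, L5 and L6, beside 0%, 0.00612% and 0.0729% of all probe sets. An unadjusted p below 0.05 was found for 1, 1 and 0 members, beside 4.01%, 8.43% and 10.6% of all probe sets. The L4 member with a low unadjusted p was Igf1, with 67.5 in the SNL pool and 54.7 in the SNL gabapentin pool, against 29.8, 39.8 and 30.1 in the sham, naive and naive gabapentin pools. These groups did not overlap, and its change of 0.78 ± 0.22 had an adjusted p of 0.82. At L5 it was Igfbp2, with 158 and 161 in ligated pools, against 124 in sham and 102.0 in naive (0.48 ± 0.16, adjusted p = 0.49). The GAPDH ratio was 0.90 to 1.04 in ligated and 1.17 to 1.26 in unligated contralateral L5 pools, and its part was not tested. In brain Igf1 was faint, and its SNL pool had 3.22, below the pseudocount, with 34.7 in the SNL gabapentin pool.

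Direct comparison of the ligation changes between ganglia gave 1 call among the members. The Igfbp6 change was larger in the ipsilateral than in the contralateral L5 DRG by 1.17 ± 0.15 (adjusted p = 0.038), where 0.711% of 17570 probe sets passed. The contralateral Igfbp6 signals were 382 in the SNL pool and 161 in the SNL gabapentin pool, against 317 in sham and 201 in naive, so the SNL pool was the higher of the 2 ligated pools on both sides. Of the 4 treatments measured on both sides, gabapentin was given in the ligated group only. The call was lost without any 1 of these 4 treatments: the adjusted p was 0.11 without SNL, 0.10 without SNL gabapentin, 0.12 without sham and 0.13 without naive. The same difference for Igf1 was 0.91 ± 0.27 (adjusted p = 0.165) and for Igf2 0.84 ± 0.23 (adjusted p = 0.13). Against the L4 DRG, 0 of 8 members passed by limma for L5 and 0 of 8 for L6, beside 3.07% and 1.63% of all probe sets. Between the L6 ganglia of both sides 0 of 8 passed, beside 2.31%. At an unadjusted p below 0.05 these comparisons held 3, 0 and 3 members. The shares of all probe sets at that level were 21.7%, 17.3% and 16.5%.

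Several members were brighter in the SNL pool than in the SNL gabapentin pool across the ganglia, by the widest ratios for Igfbp5 and Igfbp6. The SNL pool had the highest Igfbp5 signal in 6 of 6 DRG compartments and exceeded the SNL gabapentin pool by 1.36 to 2.67 times. For Igfbp6 it was the highest in 4 of 6 and exceeded the SNL gabapentin pool by 1.1 to 2.45 times. Igf2 was highest in the SNL pool in 5 of 6 and exceeded the SNL gabapentin pool in 6 of 6, by 1.07 to 1.68 times, and Igfbp4 exceeded it in 6 of 6, by 1.02 to 1.76 times. The summed fibroblast and meninges markers were likewise highest in the SNL pool in 6 of 6 DRG compartments, by 1.2 to 1.64 times over the SNL gabapentin pool. The macrophage and microglia sum exceeded the SNL gabapentin pool in 6 of 6 (1.03 to 1.66 times) and the astrocyte and satellite glia sum in 5 of 6. Both were highest in the SNL pool in 4 of 6. The other lists exceeded it in 1 to 4 of 6. As SNL and SNL gabapentin have 1 pool each per compartment, whether the difference belongs to gabapentin or to the pool cannot be told apart here.

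**Figure D4:**
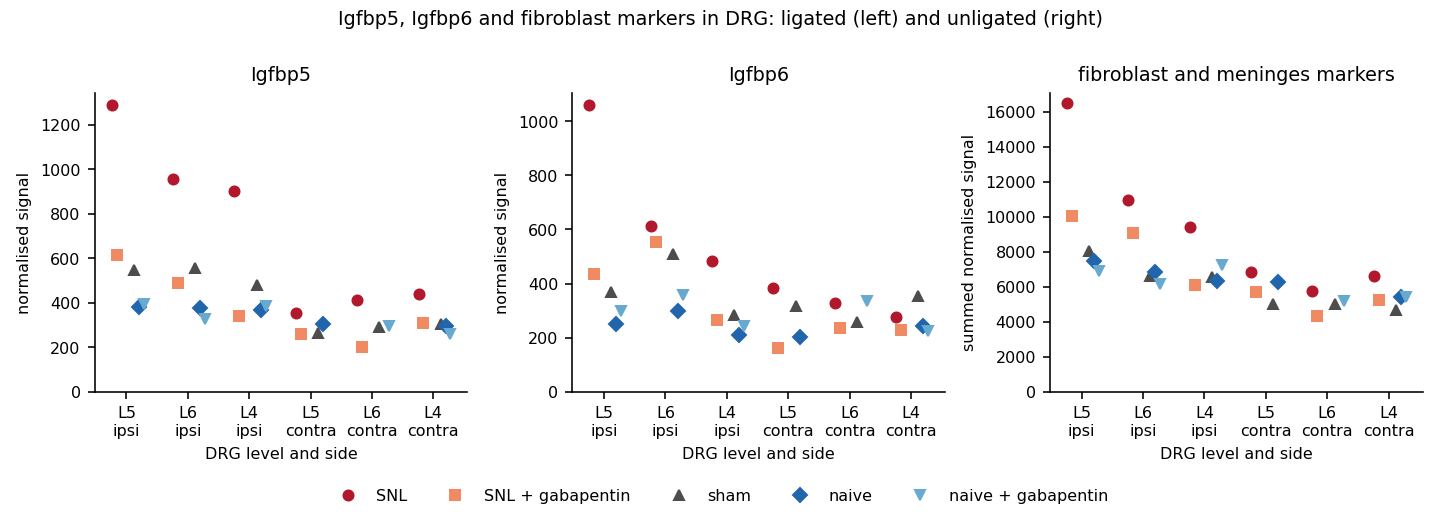
Signal of Igfbp5, of Igfbp6 and of 10 summed fibroblast and meninges markers (linear axes from 0) in the 6 DRG compartments; each point is 1 pool, ligated left of unligated. The SNL pool is the highest in all 6 compartments for Igfbp5 and for the marker sum, on the untied L4 and contralateral sides too.

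Gabapentin, tested across ligated and unligated rats with ligation as a covariate (2 treated pools against 3), gave 0 calls among 8 members in each of 6 tests by limma: the ipsilateral L4, L5 and L6 DRG, nerve, cord, and the mean over 8 compartments. Members with an unadjusted p below 0.05 numbered 0, 1, 2, 0, 0 and 1 in these tests. The shares of all probe sets at that level were 2.76%, 3.77%, 3.27%, 2.76%, 3.12% and 2.52%, and 0% passed in each. The 2 in the L6 DRG were Igfbp5 (-0.68 ± 0.23) and Igf2 (-0.66 ± 0.21), both with an adjusted p of 1.00. The ratio of the SNL gabapentin to the SNL pool for Igfbp5 was 0.37 in L4, 0.48 in L5 and 0.51 in L6 DRG. The ratio of the naive gabapentin to the naive pool was 1.05, 1.03 and 0.88 in the same ganglia. The interaction of drug and ligation was not tested. Each combination holds 1 pool, except the one without drug or ligation, which holds sham and naive.

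The members differed widely between tissues, and 6 of the 8 passed between unligated ipsilateral nerve and L5 DRG. Here all 52 arrays of a set were normalised together, and 3 pools of a tissue (naive, naive gabapentin and sham) were compared with 3 of another. The same pools serve several of these comparisons. Nerve over L5 DRG gave 5 higher and 1 lower, beside 36.7% of the 19078 probe sets tested. On the deposited scaling, where the median over all probe sets was -0.75, the calls of Igf2 (0.37, adjusted p = 0.19), Igfbp3 (0.09, adjusted p = 0.83) and Igfbp5 (0.63, adjusted p = 0.054) were lost. Nerve pools also held more fat and muscle transcripts, with Adipoq at 453 and Ckm at 3024, against 2.00 and 323 in L5 DRG. Their GAPDH ratio was 1.60 to 7.38, against 1.13 to 1.26 in L5 DRG. The part of these in the nerve differences was not tested.

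Igfbp6 was the gene most skewed to nerve. Its nerve signals were 962 in naive, 2008 in naive gabapentin and 3055 in sham pools, against 211, 250.1 and 306 in the L5 DRG of the same treatments. No pool overlapped, and the log2 difference was 2.81 ± 0.30 (adjusted p = 7.5e-06). Over brain, where it had 75.7, 62.8 and 75.9, the difference was 4.56 ± 0.30. Igfbp5 averaged 1011 ± 435 in nerve and 365 ± 77.8 in L5 DRG (SD, n = 3 each), a log2 difference of 1.39 ± 0.27 (adjusted p = 0.0011). Over cord (1.48 ± 0.27) and brain (2.34 ± 0.27) it was also higher in nerve. Its second probe set did not follow, at 69.0 in nerve and 71.8 in L5 DRG (-0.01 ± 0.32).

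Igf1 averaged 215 ± 54.6 in nerve and 50.6 ± 16.5 in L5 DRG (SD, n = 3 each), a log2 difference of 1.98 ± 0.24 (adjusted p = 2.3e-05), and its second and eighth probe sets also passed upwards, by 2.02 and 1.80. Igfbp3 averaged 67.3 ± 24.9 in nerve and 35.6 ± 2.97 in L5 DRG (0.77 ± 0.24, adjusted p = 0.021); without naive gabapentin (adjusted p = 0.13) or without sham (adjusted p = 0.19) it did not pass. Igf2 averaged 157 ± 7.69 in nerve and 72.9 ± 8.04 in L5 DRG (1.05 ± 0.14, adjusted p = 3.9e-05). The second probe sets of Igf2 (-0.07 ± 0.17) and Igfbp3 (-0.02 ± 0.28) did not pass. Igfbp2, a binding protein prominent in the central nervous system, ran the other way, with 32.8, 34.4 and 22.7 in nerve, against 74.4, 71.3 and 89.3 in L5 DRG (-1.24 ± 0.19, adjusted p = 0.00018). The second and the third Igfbp2 probe sets gave -2.61 and -2.42, with nerve means of 9.72 and 4.45 that were near the pseudocount. Thus Igfbp2 and Igfbp5, neighbours on the chromosome, differed in opposite directions between these tissues.

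The brightest Igf2 probe set had a tissue order of its own. It averaged 157 ± 7.69 in nerve, 72.9 ± 8.04 in L5 DRG, 241 ± 28.9 in ipsilateral cord and 311 ± 27.5 in brain (SD, n = 3 each). The nerve signals did not overlap with those of L5 DRG, which were lower, or with those of cord and brain, which were higher. The log2 difference was -1.65 ± 0.14 for L5 DRG over cord, -2.01 ± 0.14 for L5 DRG over brain and -0.96 ± 0.14 for nerve over brain (adjusted p = 5.3e-05). For nerve over cord it was -0.59 ± 0.14 (adjusted p = 0.0034), a call lost with median scaling (-0.17, adjusted p = 0.44). The second Igf2 probe set (r = 0.41 with the brightest over 52 pools) did not show this order. On the deposited scaling its naive, naive gabapentin and sham pools had 75.5, 84 and 97 in brain. In L5 DRG they had 82.5, 82.4 and 69.6, and in ipsilateral cord 125.5, 77.6 and 91, so brain overlapped with both. The choroid plexus gene Ttr, at 2451 in brain and at most 38.6 in the other 3 tissues, was, like the brightest Igf2 probe set, highest in brain. The other listed choroid plexus markers were not. Kl had 23.7 in brain and 26.9 in nerve, Folr1 27.0 in brain and 28.6 in cord, and Kcnj13 4.80 in brain and 8.37 in L5 DRG. The part of these markers in the Igf2 levels was not tested.

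Igf1, Igfbp3, Igfbp5 and Igfbp6 were all lowest in brain among these 4 tissues. Igf1 had 91.1, 75.3 and 76.1 in cord, against 15.1, 25.8 and 24.1 in brain, which put cord above brain by 1.67 ± 0.24 (adjusted p = 0.00036). Cord also exceeded brain for Igfbp3 (1.40 ± 0.24, adjusted p = 0.0012) and for Igfbp6 (1.03 ± 0.30, adjusted p = 0.037), and the Igfbp6 call held in 3 of 8 other settings: it was lost without naive gabapentin (adjusted p = 0.28), without sham (0.051), on the deposited scaling (0.077), with median scaling (0.12) and without the filter (0.056). Igfbp5 did not pass (0.86 ± 0.27, adjusted p = 0.051), but did with treatment as a block (adjusted p = 0.0105) and on the deposited scaling (0.88, adjusted p = 0.044). This made 3 of 8 higher in cord than brain, beside 13.7% of all probe sets. The remaining comparisons gave 3 higher and 2 lower for nerve over cord (39.4% of all probe sets passed), 4 higher and 2 lower for nerve over brain (45.6%), 0 higher and 2 lower for L5 DRG over cord (22.1%) and 4 higher and 1 lower for L5 DRG over brain (28.1%). In L5 DRG over cord the lower genes were Igf2 and Igfbp2, and Igfbp2 (-0.57 ± 0.19, adjusted p = 0.048) held in 1 of 8 other settings: it was lost without naive (adjusted p = 0.14), naive gabapentin (0.34) or sham (0.051), on the deposited scaling (0.47), with median scaling (0.24), without the filter (0.062) and with treatment as a block (0.057). Igfbp6 passed upwards there without naive (0.92, adjusted p = 0.027) and on the deposited scaling (1.05, adjusted p = 0.048), and without naive gabapentin Igf1 passed downwards (-0.92, adjusted p = 0.037). In L5 DRG over brain, Igf1 was lost without naive (adjusted p = 0.086), and Igfbp3 (0.057) and Igfbp5 (0.12) without naive gabapentin.

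By their brightest probe sets, Igf1r and Igfbp4 were the flattest members. Over the 11 compartments of unligated pools, the highest mean was 1.43 times the lowest for Igf1r and 1.36 times for Igfbp4, against 28.9 times for Igfbp6, 11.4 for Igf1, 7.88 for Igfbp5, 6.25 for Igfbp3, 4.27 for Igf2 and 4.0 for Igfbp2. When the 11 compartments were ordered by mean, 0 of 10 neighbouring pairs were free of overlap for Igf1r and Igfbp4. For Igf1 3 pairs were: nerve over cord, cord over the DRG and the DRG over brain. For Igfbp5 and Igfbp6 the 2 nerve compartments stood clear above all others and brain clear below. For Igfbp2 the 1 free gap lay above the 2 nerve compartments, which were the lowest. The second, dimmer Igfbp4 probe set was not flat: it was higher in nerve than in cord by 1.07 ± 0.21 (adjusted p = 0.0013).

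Across the 52 pools the members fell into a nerve-high set and others. Pearson's r of log2 signals was 0.90 between Igfbp5 and Igfbp6, 0.84 between Igf1 and Igfbp3 and 0.81 between Igf1 and Igfbp5. Igfbp2 had r of -0.79 with Igfbp6, while Igf2 had r between -0.07 and 0.26 with every other member. Among 13805 probe sets searched, the genes closest to Igfbp6 were Col1a2 (0.97), which encodes a collagen chain, Serpinf1 (0.96) and Abi3bp (0.96). Those closest to Igfbp5 were Dpt (0.93), Bgn (0.93), both matrix proteins, and Thbd (0.92). Those closest to Igf1 were Tmed10, Gng11 and Txnip (0.92, 0.92 and 0.91), to Igf2 Rgma (0.92), Setsip and Lrp1 (0.88 each), to Igfbp3 Dera (0.91), and to Igfbp2 Pfn2 (0.90). For Igf1r and Igfbp4 the best matches were weak, Slc22a13 at 0.52 and Zfp53 at 0.54. These values describe 52 pools that share tissues, treatments and normalisation.

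The wider pathway was followed through 75 other listed genes (other ligands and binding proteins, receptors and the growth hormone axis, proteases, adaptors, PI3K and Akt, Ras and MAP kinase), of which 62 had a probe set. In the L5 DRG 2 rose and 4 fell among 52 tested, beside 15.6% of all probe sets in either direction. Somatostatin (Sst), which restrains growth hormone release and is also a sensory neuron peptide, had 68.0 and 73.1 in ligated pools, against 401, 423 and 448 in sham, naive and naive gabapentin pools, a fall of 2.49 on the log2 scale. The PI3K catalytic subunit gene Pik3cb (-0.92), the death promoter Bad (-0.47) and the lysosomal protease gene Ctsd (-0.47) also fell, and the adaptor gene Gab1 (0.69) and the plasminogen activator gene Plat (0.44) rose. In the L6 DRG 3 rose and 1 fell among 52, beside 8.59% of all probe sets: Mmp2 (1.16), Jak2 (0.89) and Plat (0.80) rose and Sst fell by 5.36. In nerve 2 rose and 1 fell among 52, beside 4.87% of all probe sets. Plat had 634 and 489 in ligated nerve pools, against 159, 197 and 236, a rise of 1.49 ± 0.22 (adjusted p = 0.013). Htra1, a secreted protease that cuts IGF binding proteins, rose by 0.96 and the adaptor gene Grb14 fell by 1.61. In the L4 DRG 0 of 53 passed by limma, beside 0.0418% of all probe sets. An unadjusted p below 0.05 was found for 4 of the 53, beside 14.3% of all probe sets. The shares past the test are near those over all probe sets and are no result about the pathway.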

How the data were processed

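RNA of 52 rat tissue pools was measured on 156 Affymetrix U34 arrays (sets A, B and C). The deposited values are linear signal intensity per probe set, made with MAS5 per the submitters' processing notes. The sources used here name neither its version nor its scaling target, and hold no detection calls. For ligation and gabapentin, arrays of a set were quantile normalised within a compartment, and for tissue comparisons over all 52 pools. Values were taken as log2(signal + pseudocount), with pseudocounts of 5.8, 4.5 and 6.2 on A, B and C (each set's 20th percentile), so changes of dim probe sets are understated. Probe sets above the 40th percentile of their array in at least 2 pools of a comparison were tested with limma 3.58.1 in R 4.3.3 (lmFit, eBayes with trend), and p-values were adjusted by Benjamini-Hochberg over all of them at a threshold of 0.05. The code was tested on simulated data. The number of arrays limits the precision. Each gene was represented by its brightest probe set. Named genes are all 8 members, up to 6 other pathway genes past the test per comparison, largest change first, and the 3 genes most correlated with each member over 52 pools. Members and gene lists were chosen with earlier results of these data known. Gene symbols came from the platform annotation and were updated through RefSeq, which also gave the promoter sequences. Alternatives were 2 scalings, normalisation over all pools, a pseudocount of 16, no filter, any probe set, a shared spread, a muscle covariate, treatment as a block and leaving out each treatment.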

Additional observations from a re-analysis of the deposited data

Results flagged for a closer look

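The ligation change of Igfbp6 differed between the ipsilateral and the contralateral L5 DRG by 1.17 on the log2 scale, in a test of the difference itself (limma, adjusted p = 0.038). The ipsilateral signals were 1061 and 434 in the SNL and SNL gabapentin pools, against 367 and 251 in the sham and naive pools. The contralateral signals were 382 and 161, against 317 and 201. Under 9 other settings the difference ranged from 0.83 to 1.28, and it passed in 2 of them.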

How the results depend on the processing

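Of the single-gene values checked under other settings, 862 of 885 ligation values, 358 of 384 tissue values, 376 of 384 differences and 480 of 480 gabapentin values kept their side of the threshold, and 0 called values changed sign. The Igf2 rise in L5 DRG passed in 12 of 12 settings, the Igf2 rise in nerve in 10 of 12 and the Igf1 rise in L5 DRG in 5 of 12. In L5 DRG 2 members passed; the count was 1 with median scaling or without the filter, 4 with any probe set or a shared spread, and 1 to 4 when each treatment was left out. With the muscle covariate it was 3, without Igf1 and with Igfbp5 (1.44) and Igfbp6 (1.63), and on the deposited scaling 3, with Igfbp6 (0.98). In L6 DRG 0 passed, and 1 did with any probe set, median scaling, a pseudocount of 16 or a shared spread, with 0 to 2 on leaving out treatments. In L4 DRG 1 passed on the deposited scaling. In nerve 0 passed with the muscle covariate, and 0 to 1 on leaving out treatments. Nerve over L5 DRG gave 3 on the deposited scaling. L5 DRG over cord gave 1 with median scaling, without the filter or with treatment as a block, and 1 to 2 on leaving out treatments. L5 DRG over brain gave 3 to 5 on leaving out treatments. For the difference of L5 from L4 DRG 1 passed with any probe set or median scaling. For L5 ipsilateral minus contralateral the count was 2 with any probe set, and 0 on the deposited scaling, with median scaling, without the filter and, at lowest and highest, 0 and 0 on leaving out treatments. Nerve minus L5 DRG gave 1 with any probe set. The causes were not tested.

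Scaling also moved the balance over all probe sets. In L5 DRG 1130 rose and 1487 fell, against 469 and 2609 on the deposited scaling (median -0.24) and 660 and 2055 with median scaling. In nerve 380 rose and 444 fell, against 420 and 175 (median 0.33) and 272 and 457. In L6 DRG 738 rose and 713 fell, against 24 and 62 (median -0.28). In L4 DRG 1 rose and 6 fell, against 2878 and 48 (median 0.49), and in contralateral L6 DRG 10 and 2, against 20 and 1207 (median -0.52). Nerve over L5 DRG had 3578 higher and 3429 lower, against 773 and 9629 on the deposited scaling; nerve over cord had 3802 and 3720, against 1267 and 9396, and 4655 and 2746 with median scaling; nerve over brain had 4372 and 4324, against 2116 and 7115. L5 DRG over cord had 2284 and 1930, against 2279 and 1006, and 2918 and 1288 with median scaling. L5 DRG over brain had 2843 and 2524, against 3965 and 1127. Cord over brain had 1320 and 1292, against 1124 and 502, and 785 and 1131 with median scaling. No paired analysis was possible because the labels give no replicate numbers and each treatment belongs to either the ligated or the unligated group, as far as the ligation comparisons go. Tissues of the same treatment were paired with treatment as a block: Igfbp2 in L5 DRG over cord was lost (adjusted p = 0.057), Igfbp5 in cord over brain passed (0.0105), and the block changed no other call among the members. Probe sets below the filter were not tested, and signals near the pseudocount have little order.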
